A study of Mus musculus with 8 samples.

Results

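T cells with 2 productive T cell receptor beta (TRB) chains were taken as the cell barcodes with exactly 2 productive TRB contigs, and there were 286 of them among 6686 barcodes with any receptor chain and 6509 with a TRB. A TRB was identified by its V segment, its J segment and the nucleotides of its CDR3, the loop encoded across the V-D-J junction. A pair of TRB carried by 2 or more barcodes of a library was called recurrent, and the others were pairs seen in a single barcode. Recurrent pairs covered 60 barcodes in 9 distinct pairs, and 226 barcodes held a pair seen a single time, which made 235 distinct pairs in all.

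The barcodes came from a CD45+ immune cell sort of brain parenchyma, with 2 receptor libraries from 5xFAD;Cxcr6-/- mice (written 5xFAD/Cxcr6-/- in part of the labels and from here on) and 2 from 5xFAD mice. Both groups are on C57BL/6 and both carry the 5xFAD transgenes, human amyloid precursor protein and presenilin with familial Alzheimer's disease mutations expressed in neurons from the Thy1 promoter, so neither group is free of amyloid. The 5xFAD/Cxcr6-/- mice also lack Cxcr6, a chemokine receptor of tissue-resident T cells, and the labels do not say that the loss is limited to T cells. The series title places the question in CXCR6 and the residency of T cells in the brain. The labels give no age and do not say whether libraries are separate mice, so p-values measure the spread between libraries. RNA expression samples of the series were not analysed here, and the genotypes could therefore not be checked by the level of Cxcr6.

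As background, a developing thymocyte joins a TRB V, D and J segment on one chromosome and, once a working beta chain reaches the surface as part of the pre-T cell receptor, rearrangement of the other allele is shut off. This allelic exclusion leaves most T cells with a single beta chain, and a small share escapes it. The alpha locus (TRA) is not closed in the same way, so a second alpha chain is common. The mouse TRB locus carries a pair of D-J-C clusters in series, TRBD1 with the TRBJ1 segments and TRBC1, then TRBD2 with the TRBJ2 segments and TRBC2, and TRBV31 lies behind them in inverted orientation. A barcode can also show chains of more than 1 cell when cells share a droplet or when free RNA enters it.

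The CDR3 nucleotides of the largest recurrent pair of each library are given first because these pairs, with their shared TRA, are the recurrent combinations that the counts turn on. They are read from the deposited contigs, 5′ to 3′ on the coding strand, and capitals mark the bases that match neither the germline V nor the germline J segment of the annotation, which hold trimmed D segments and added bases.
5xFAD/Cxcr6-/- library 1 TRBV17-TRBJ2-7: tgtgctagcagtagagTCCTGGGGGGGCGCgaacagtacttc
5xFAD/Cxcr6-/- library 1 TRBV23-TRBJ1-1: tgctccagcagtcGAcaa
5xFAD/Cxcr6-/- library 1 TRAV6N-7-TRAJ17: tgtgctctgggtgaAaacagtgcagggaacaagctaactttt
5xFAD/Cxcr6-/- library 2 TRBV3-TRBJ2-7: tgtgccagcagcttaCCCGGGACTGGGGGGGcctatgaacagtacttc
5xFAD/Cxcr6-/- library 2 TRBV29-TRBJ2-1: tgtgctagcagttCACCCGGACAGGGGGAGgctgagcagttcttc
5xFAD/Cxcr6-/- library 2 TRAV9-1-TRAJ23: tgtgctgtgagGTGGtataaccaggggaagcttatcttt
5xFAD library 1 TRBV17-TRBJ2-4: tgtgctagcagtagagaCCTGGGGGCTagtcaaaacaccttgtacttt
5xFAD library 1 TRBV12-1-TRBJ2-4: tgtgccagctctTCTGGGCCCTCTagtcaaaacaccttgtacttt
5xFAD library 1 TRAV6-7-DV9-TRAJ30: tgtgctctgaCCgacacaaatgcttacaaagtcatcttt
5xFAD library 2 TRBV13-1-TRBJ2-7: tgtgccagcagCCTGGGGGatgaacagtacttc
5xFAD library 2 TRBV31-TRBJ2-4: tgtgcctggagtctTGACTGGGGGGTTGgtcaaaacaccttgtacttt
5xFAD library 2 TRAV12D-2-TRAJ22: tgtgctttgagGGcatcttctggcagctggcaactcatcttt

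The germline D segments of the same annotation are shown beside them for the capitals.
TRBD1: gggacagggggc
TRBD2: gggactgggggggc
The longest run shared with TRBD2 was 13 bases in the TRBV3 chain of 5xFAD/Cxcr6-/- library 2 and 10 bases both in the TRBV17 chain of 5xFAD/Cxcr6-/- library 1 and in the TRBV31 chain of 5xFAD library 2. The TRBV29 chain of 5xFAD/Cxcr6-/- library 2 shared 10 bases with TRBD1 and 5 with TRBD2. Both chains of that pair use TRBJ2 segments. A run of this kind is a match of letters and was not tested for the D segment that was joined.

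The segments of these chains lie on GRCm38 chromosome 6 for TRB and chromosome 14 for TRA, by GENCODE vM21. TRBV17 is at chr6:41163062-41163556, TRBV23 at chr6:41216073-41216526, TRBV3 at chr6:41048290-41048828 and TRBV29 at chr6:41271394-41271881, all on the plus strand and annotated as TR_V_gene. TRBV31 is at chr6:41557691-41558452 on the minus strand. TRBC1 (chr6:41538218-41539881) and TRBC2 (chr6:41546730-41548352) stand at the ends of the first and the second D-J-C cluster. TRAV6N-7 (chr14:53318798-53319284) and other TRAV segments have near-identical copies, so the V name of a TRA is less certain than that of a TRB.

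The 5xFAD/Cxcr6-/- libraries held 765 and 1330 barcodes with 13460 and 22340 receptor UMIs, and the 5xFAD libraries held 2069 and 2522 barcodes with 32169 and 34772 UMIs. All 12792 contigs were productive and high confidence, and every one was TRA or TRB, the chains of alpha-beta T cells. The deposited tables held 0 barcodes with more than 2 TRB and 0 with more than 2 TRA. They also held 0 barcodes with 2 TRB and no TRA, while 1198 of the 6223 barcodes with 1 TRB lacked a TRA (16.3% to 21.3% per library). The step that set these limits is not given in the sources used here. Barcode sequences recurred between libraries in 28 cases, 3 of them with 2 TRB in either library, and 0 of the 28 shared a chain. No TRB pair was found in more than 1 library, and 3 of the 463 distinct chains of 2-TRB barcodes were found in another library.

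Barcodes with 2 TRB were a small share in every library, and the difference between genotypes lay in 1 pair. They were 8.19% (61 of 745 barcodes with a TRB, with 6.32 to 10.4 as the exact 95% Clopper-Pearson bounds) in 5xFAD/Cxcr6-/- library 1 and 4.22% (55 of 1304, 3.19 to 5.45) in 5xFAD/Cxcr6-/- library 2. They were 4.06% (82 of 2022, 3.24 to 5.01) in 5xFAD library 1 and 3.61% (88 of 2438, 2.90 to 4.43) in 5xFAD library 2. Intervals here and below cover counting error only and take barcodes as independent, which those of a recurrent pair are not. In 5xFAD/Cxcr6-/- library 1, 37 of the 61 barcodes held the same pair, so its interval is too narrow. Library 1 of 5xFAD/Cxcr6-/- stood above the others, and the intervals of the others overlapped. The mean was 6.20% ± 2.81 in 5xFAD/Cxcr6-/- and 3.83% ± 0.315 in 5xFAD (SD, n = 2 each), a difference of 2.37 percentage points with an exact two-sided permutation p of 0.333, the smallest that 2 against 2 libraries can give. Without the largest recurrent pair of each library the shares were 3.39% and 3.63% in 5xFAD/Cxcr6-/- and 3.96% and 3.49% in 5xFAD, and the difference was -0.22 percentage points. The groups then overlapped.

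**Figure D1:**
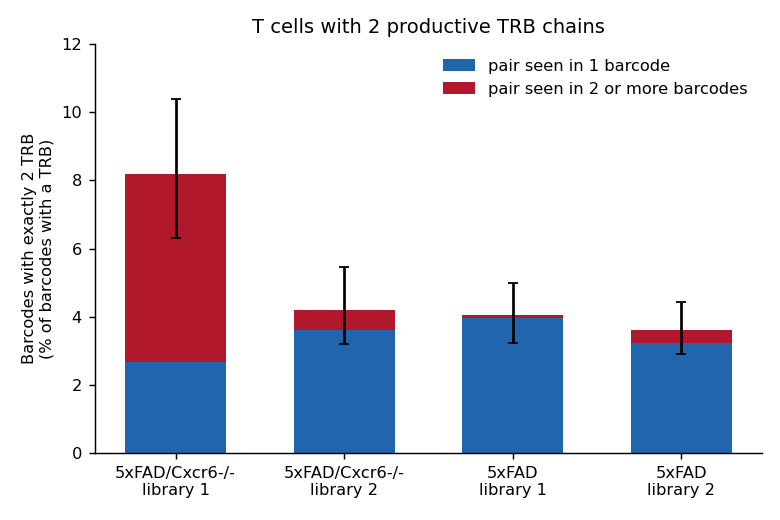
Barcodes with exactly 2 productive TRB as a percent of barcodes with a TRB (vertical axis) in each library, split into pairs seen in 2 or more barcodes (red) and pairs seen in 1 barcode (blue), with the 95% Clopper-Pearson interval of the total. The intervals take barcodes as independent, which those of a recurrent pair are not. Library 1 of 5xFAD/Cxcr6-/- reached 8.19%, of which most is red, and the other libraries lay between 3.61% and 4.22%.

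Recurrent pairs held 67.2% (41 of 61) and 14.5% (8 of 55) of the 2-TRB barcodes in the 5xFAD/Cxcr6-/- libraries, against 2.44% (2 of 82) and 10.2% (9 of 88) in the 5xFAD libraries. The mean was 40.9% ± 37.2 in 5xFAD/Cxcr6-/- and 6.33% ± 5.51 in 5xFAD (SD, n = 2 each), a difference of 34.5 percentage points with an exact permutation p of 0.333. The SD of the 5xFAD/Cxcr6-/- libraries was larger than the difference, so it did not stand outside the spread. With each distinct pair counted a single time, 3 of 23 and 1 of 48 pairs recurred in 5xFAD/Cxcr6-/-, against 1 of 81 and 4 of 83 in 5xFAD, a difference of 4.54 percentage points. Without the largest pair of each library, the recurrent share of 2-TRB barcodes differed by 4.80 percentage points.

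The largest pair joined a TRBV17-TRBJ2-7 chain to a TRBV23-TRBJ1-1 chain in 37 barcodes of 5xFAD/Cxcr6-/- library 1, 60.7% of its 2-TRB barcodes. All 37 carried the same single TRA, TRAV6N-7-TRAJ17. The TRBV17 chain had a median of 23 UMIs (6 to 65) and the TRBV23 chain a median of 7 (2 to 18), and TRBV17 was the stronger chain in 36 of 37 barcodes. The chains were thus unequal in nearly every cell of this pair. The TRBV17 chain was also the only TRB of 14 further barcodes, of which 10 carried the same TRA and 4 had no TRA. In those 14 barcodes it had a median of 13 UMIs (4 to 23). The TRBV23 chain was found as the only TRB of 0 barcodes.

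This TRBV23-TRBJ1-1 chain had an unusual junction. Its called CDR3 was 18 bases or 6 residues long and did not end in the phenylalanine codon with which J segments close a CDR3. Of the distinct TRB chains of the series, 2 of 463 in 2-TRB barcodes and 0 of 4038 in 1-TRB barcodes had a CDR3 that did not end in phenylalanine. Both were TRBV23 chains of 5xFAD/Cxcr6-/- libraries, the second being a TRBV23-TRBJ2-7 chain in 1 barcode of library 2. Ordinary TRBV23 chains were also present, as 27 of the 4038 distinct chains of 1-TRB barcodes. These chains were singled out after their values were seen. Below, the CDR3 and framework 4 of the 37-barcode chain are set beside germline TRBJ1-1 (chr6:41533864-41533911), in which capitals mark the 19 bases that the chain lacks.
TRBV23-TRBJ1-1 chain: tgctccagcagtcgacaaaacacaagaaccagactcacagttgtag
germline TRBJ1-1: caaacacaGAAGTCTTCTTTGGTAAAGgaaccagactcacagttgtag
The chain matched 7 bases before the capitals and 21 bases after them, with 1 base between that belongs to neither stretch. Of the CDR3, only the last base lies in the stretch of 7. The lower-case bases at the J end of the CDR3 printed earlier are therefore not all J-matched in this alignment. The capitals hold the codons for the phenylalanine and the glycine that follows it in germline TRBJ1-1. The CDR3 and framework 4 were identical in all 37 barcodes, and the chain was listed as productive. Because the closing residue is missing, its CDR3 length is the one listed in the deposited table and not a measured loop.

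The pair of 5xFAD/Cxcr6-/- library 2 was balanced where that of library 1 was not. It was found in 8 barcodes, all with TRAV9-1-TRAJ23 as the single TRA, and joined TRBV3-TRBJ2-7 to TRBV29-TRBJ2-1. The TRBV3 UMIs were 8, 12, 5, 7, 4, 4, 6 and 8, and the TRBV29 UMIs of the same barcodes were 3, 6, 6, 11, 5, 5, 8 and 2. TRBV29 was the stronger chain in 5 of 8 barcodes and TRBV3 in 3. Neither chain was the only TRB of any other barcode.

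The recurrent pairs of 5xFAD held 2 or 3 barcodes each. In library 1, 2 barcodes joined TRBV17-TRBJ2-4, with 13 and 12 UMIs, to TRBV12-1-TRBJ2-4, with 8 and 10 UMIs. In library 2, 3 barcodes joined TRBV13-1-TRBJ2-7, with 5, 10 and 19 UMIs, to TRBV31-TRBJ2-4, with 2, 2 and 15 UMIs. TRBV13-1 was the stronger chain in all 3, and its chain was the only TRB of 1 further barcode, which had no TRA. TRBV31, the inverted segment behind TRBC2, was in 2 of the 9 recurrent pairs. It made a mean of 4.33% of the distinct chains of all 2-TRB barcodes and 3.52% of those of 1-TRB barcodes. Its place in recurrent pairs was not tested. The remaining 5 recurrent pairs of the series held 2 barcodes each, 2 of them in 5xFAD/Cxcr6-/- library 1 and 3 in 5xFAD library 2.

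In all 9 recurrent pairs every barcode carried the pair's commonest TRA, although the pairs were defined by TRB alone. A second TRA was found in 1 of the 60 recurrent barcodes, in a TRBV19 and TRBV31 pair of 5xFAD library 2. Neither chain was found alone in 6 of the 9 pairs, 1 chain was in 2 pairs, and both were in 1 pair. That last pair joined TRBV15-TRBJ2-2 to TRBV13-3-TRBJ1-4 in 2 barcodes of 5xFAD/Cxcr6-/- library 1. Its TRBV13-3 chain was the commonest TRB among 1-TRB barcodes of that library, in 19 of them, of which 8 carried another TRA than the pair and 11 had none. Its TRBV15 chain was alone in 1 barcode, with the TRA of the pair.

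Barcodes with 2 TRB held about double the TRB UMIs of barcodes with 1 TRB. In the 5xFAD/Cxcr6-/- libraries the median TRB UMIs per barcode were 25 and 19 in 2-TRB barcodes, against 10 and 10 in 1-TRB barcodes. In the 5xFAD libraries they were 19 and 17 in 2-TRB barcodes, against 10 and 8 in 1-TRB barcodes. The mean log2 ratio was 1.07 ± 0.19 (SD, n = 4 libraries), or 2.09-fold, and it was positive in 4 of 4 libraries. The sum of 2 chains is set against 1 chain here, so a positive value follows in large part from how the barcodes were chosen. The exact sign-flip permutation p was 0.13, the smallest that 4 libraries can give, with a Benjamini-Hochberg adjusted value of 0.2 over 8 such tests. The median TRA UMIs were 6 and 5 in 2-TRB barcodes of 5xFAD/Cxcr6-/-, against 4 and 4 in its 1-TRB barcodes, and 5 and 5 in 2-TRB barcodes of 5xFAD, against 3 and 3 in its 1-TRB barcodes. These 1-TRB barcodes include those without a TRA. At a matched number of 1 TRA, the medians in pairs seen in 1 barcode were 6 and 5 in 5xFAD/Cxcr6-/- and 4 and 5 in 5xFAD, against 4 in 1-TRB barcodes of every library. With 2 TRA they were 11 and 13 in 5xFAD/Cxcr6-/-, against 9 and 10 in 1-TRB barcodes, and 8 and 9 in 5xFAD, against 8 and 9 in 1-TRB barcodes. The TRA medians were thus equal in 5xFAD library 1 at both TRA numbers and in 5xFAD library 2 with 2 TRA.

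The stronger chain of a 2-TRB barcode had a median of 17 and 13 UMIs in 5xFAD/Cxcr6-/- and 11 and 11.5 in 5xFAD, being by definition the larger of 2 values. The weaker chain had medians of 7 and 7 in 5xFAD/Cxcr6-/- and 7 and 6 in 5xFAD. No second chain rested on 1 UMI, since the lowest value of a weaker chain was 2 in every library. Among 1-TRB barcodes, the only TRB rested on 1 UMI in 0.876% to 1.49%.

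**Figure D2:**
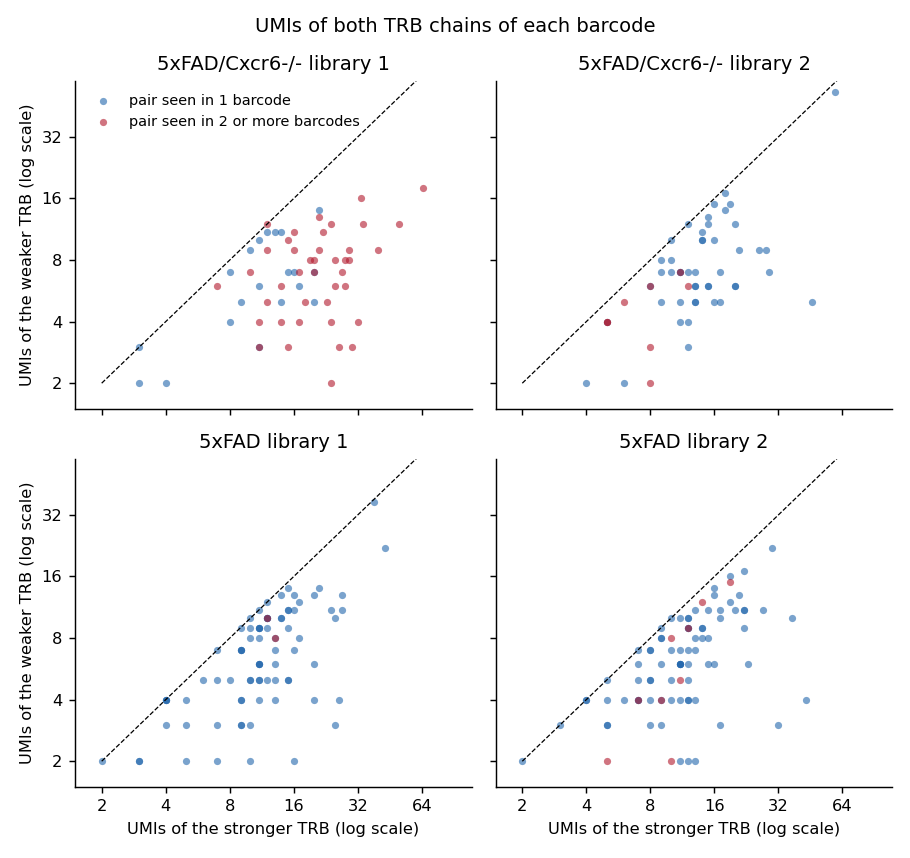
UMIs of the stronger (horizontal axis) and the weaker (vertical axis) TRB of each 2-TRB barcode, both on log scales, 1 panel per library, with pairs seen in 2 or more barcodes in red and pairs seen in 1 barcode in blue. The dashed line marks equal UMIs, and the red points of 5xFAD/Cxcr6-/- library 1 lie mostly far below it, with a TRBV17 median of 23 and a TRBV23 median of 7.

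The balance between the chains differed in direction between libraries. In 5xFAD/Cxcr6-/- the weaker chain held a median of 24.2% and 40.9% of TRB UMIs in recurrent pairs, against 35.5% and 35.7% in pairs seen in 1 barcode. In 5xFAD it held 41.8% and 36.4% in recurrent pairs, against 38.9% and 37.5% in pairs seen in 1 barcode. The recurrent medians count barcodes and rest on 3 and 1 pairs in 5xFAD/Cxcr6-/- and on 1 and 4 in 5xFAD. In 5xFAD/Cxcr6-/- library 1, 37 of the 41 recurrent barcodes held the same pair. The mean difference was -1.10 percentage points ± 7.26 (SD, n = 4), lower in 2 and higher in 2 libraries, with an exact sign-flip p of 0.875. With each distinct pair weighed the same it was -2.01 percentage points ± 5.78 (SD, n = 4). Without 5xFAD/Cxcr6-/- library 1 it was 2.29 percentage points.

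A second TRA was less frequent in barcodes of recurrent pairs than in barcodes of pairs seen a single time in every library. In recurrent pairs it was found in 0 of 41 and 0 of 8 barcodes of 5xFAD/Cxcr6-/- and in 0 of 2 and 1 of 9 barcodes of 5xFAD. In pairs seen in 1 barcode it was found in 30.0% (6 of 20) and 27.7% (13 of 47) of 5xFAD/Cxcr6-/- barcodes and in 32.5% (26 of 80) and 34.2% (27 of 79) of 5xFAD barcodes. The barcodes of a recurrent pair share a TRA, so the 60 recurrent barcodes stand for 9 pairs, with 3 and 1 in 5xFAD/Cxcr6-/- and 1 and 4 in 5xFAD, and no limit is drawn from the counts of 0. The mean difference was -28.3 percentage points ± 4.01 (SD, n = 4), lower in 4 of 4 libraries, with an exact sign-flip p of 0.13 and an adjusted value of 0.2. With at least 3 UMIs per chain it was -17.5 ± 10.4. Without the largest pair of each library, recurrent pairs were left in 2 libraries only, where it was -23.8 with an exact sign-flip p of 0.5.

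All 2-TRB barcodes together had a second TRA in 9.84% and 23.6% of cases in 5xFAD/Cxcr6-/- and in 31.7% and 31.8% in 5xFAD. Barcodes with 1 TRB had it in 9.50% and 6.81% of cases in 5xFAD/Cxcr6-/- and in 6.13% and 7.11% in 5xFAD. The mean difference of 2-TRB minus 1-TRB barcodes was 16.9 percentage points ± 11.7 (SD, n = 4), higher in 4 of 4 libraries, with an exact sign-flip p of 0.13 and an adjusted value of 0.2. In 5xFAD/Cxcr6-/- library 1 the classes lay close together, and without the 37 barcodes of the largest pair the share there was 25% (6 of 24). Since every 2-TRB barcode has a TRA, the nearer reference is 1-TRB barcodes with a TRA, of which 11.5% and 8.13% in 5xFAD/Cxcr6-/- and 7.79% and 8.86% in 5xFAD had a second. Against these the mean difference was 15.2 percentage points ± 11.8 (SD, n = 4), higher in 3 of 4 libraries and lower in 5xFAD/Cxcr6-/- library 1, with an exact sign-flip p of 0.25.

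**Figure D3:**
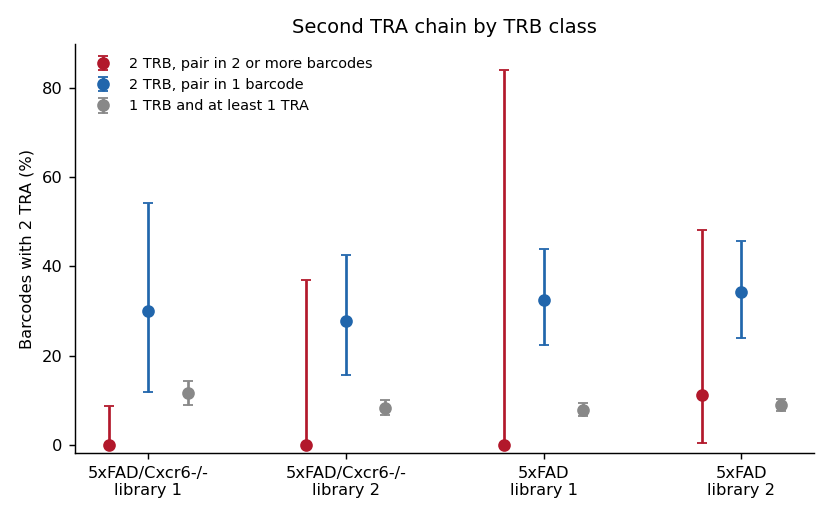
Percent of barcodes with 2 TRA (vertical axis) in each library for recurrent TRB pairs (red), TRB pairs seen in 1 barcode (blue) and 1-TRB barcodes with at least 1 TRA (grey), with 95% Clopper-Pearson intervals that take barcodes as independent, which those of a recurrent pair are not. The blue points lie between 27.7% and 34.2% in all 4 libraries and the grey points between 7.79% and 11.5%.

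The shares were also read the other way, among barcodes with a TRB. There, 2 TRB were found in 8.45% and 13.3% of 2-TRA barcodes in 5xFAD/Cxcr6-/- and in 17.9% and 14.4% in 5xFAD. Among 1-TRA barcodes with a TRB the shares were 9.87% and 4.19% in 5xFAD/Cxcr6-/- and 3.83% and 3.37% in 5xFAD. The share was higher with 2 TRA in 3 of 4 libraries, and 5xFAD/Cxcr6-/- library 1, whose largest pair has 1 TRA, was the exception.

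The chains of pairs seen in 1 barcode were looked up among 1-TRB barcodes of the same library. In 5xFAD/Cxcr6-/- both chains were found alone in 0 and 0 pairs, 1 chain in 11 and 9, and neither in 9 and 38. In 5xFAD both were found alone in 3 and 6 pairs, 1 chain in 21 and 24, and neither in 56 and 49. Chains of these pairs were thus mostly not seen on their own, and pairs whose chains were both seen apart numbered 9 of 226.

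Counted per chain, 27.5% and 9.57% of the chains of these pairs in 5xFAD/Cxcr6-/- and 16.9% and 22.8% in 5xFAD were the only TRB of another barcode. The TRB of a 1-TRB barcode was the only TRB of another barcode in 31.6% and 30.5% of 5xFAD/Cxcr6-/- and in 47.3% and 52.3% of 5xFAD 1-TRB barcodes. The shares are set side by side without a test, because the chains come from pairs chosen for being seen in 1 barcode, while every 1-TRB barcode counts in the other share, so that large clones such as the TRBV16 chain of 254 barcodes weigh in it by their size. For recurrent against single-occurrence pairs, the share of pairs with both chains found alone differed by 5.50 percentage points ± 18.8, with an exact sign-flip p of 1, and it rests on the 1 pair of 5xFAD/Cxcr6-/- library 1 named above.

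The most frequent 1-TRB chains of the libraries were looked up among the chains of pairs seen in 1 barcode. They were TRBV13-3-TRBJ1-4 (2.78% of 1-TRB barcodes) and TRBV10-TRBJ2-7 (2.48%) in 5xFAD/Cxcr6-/- and TRBV16-TRBJ2-1 (13.1%, 254 barcodes) and TRBV12-2-TRBJ1-1 (3.96%) in 5xFAD. They were 0 of 40 and 0 of 94 chains in 5xFAD/Cxcr6-/- and 0 of 160 and 0 of 158 chains in 5xFAD. These zeros allow shares of up to 7.50%, 3.19%, 1.88% and 1.90% in the same order of libraries. The 13.1% of the TRBV16 chain weighs its clone by size, so it is not compared with the 1.88% limit of 5xFAD library 1. The zeros also leave out recurrent pairs, and the TRBV13-3 chain was in 2 recurrent barcodes of 5xFAD/Cxcr6-/- library 1.

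Chains found alone were commoner in barcodes that also had 2 TRA, a split chosen after the values were seen. With 2 TRA, 50.0% (6 of 12, from 6 barcodes) and 23.1% (6 of 26) of chains in 5xFAD/Cxcr6-/- were found alone. In 5xFAD 19.2% (10 of 52) and 33.3% (18 of 54) were. With 1 TRA, the shares were 17.9% (5 of 28) and 4.41% (3 of 68) in 5xFAD/Cxcr6-/-. In 5xFAD they were 15.7% (17 of 108) and 17.3% (18 of 104), and the classes lay closest together in library 1 of 5xFAD. Over the libraries these were 40 of 144 chains with 2 TRA and 43 of 308 chains with 1 TRA, and the mean difference was 17.6 percentage points ± 11.8 (SD, n = 4), higher in 4 of 4 libraries, with an exact sign-flip p of 0.13.

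Of the 83 chains found alone, 80 had at least 1 TRA in the barcodes where they were alone. For 60 of those 80 (75%), at least 1 of these TRA was in the 2-TRB barcode too. This held for 36 of 39 chains from 2-TRA barcodes and for 24 of 41 from 1-TRA barcodes. A 2-TRA barcode can match by either TRA, so the counts depend in part on the TRA number. In 32 of the 36 the barcode held a further TRA besides the known one. Of the 9 barcodes with both TRB found alone, 2 carried the TRA of both, 6 the TRA of 1 and 1 the TRA of neither. Whether any barcode held more than 1 cell was not tested.

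**Figure D4:**
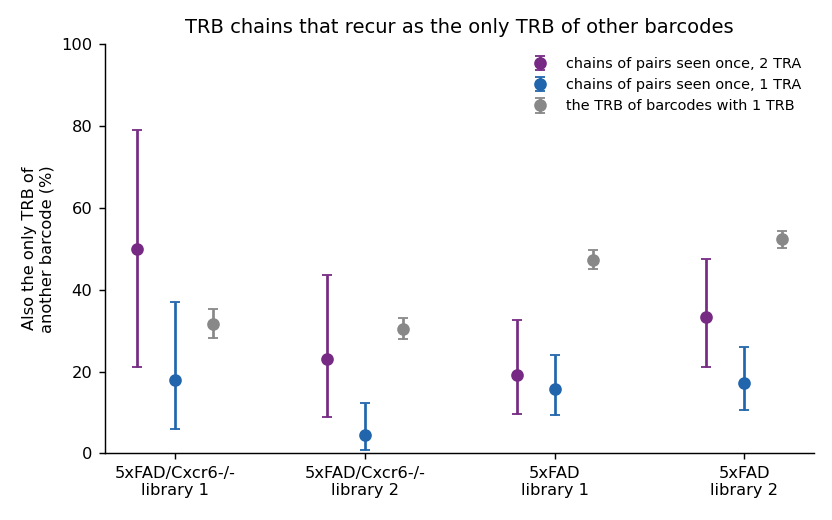
Percent of TRB chains that were also the only TRB of another barcode of the same library (vertical axis), for chains of single-occurrence pairs in barcodes with 2 TRA (purple) and with 1 TRA (blue) and for the TRB of 1-TRB barcodes (grey), with 95% Clopper-Pearson intervals. The intervals take barcodes as independent, which those of a clone are not, and the grey points weigh large clones by their size. In every library the blue point is the lowest, at 4.41% to 17.9%.

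The TRBJ clusters of the 2 chains of a pair were compared with independent draws from the chains' own TRBJ use. In 5xFAD/Cxcr6-/- both chains came from the same cluster in 43.5% and 54.2% of distinct pairs, against 50.0% and 54.3% under independence. In 5xFAD they did in 60.5% and 51.8% of pairs, against 52.8% and 50.9% under independence. The mean difference was 0.52 percentage points ± 5.84 (SD, n = 4), with an exact sign-flip p of 0.75. In 5xFAD/Cxcr6-/- 5 and 6 pairs joined 2 TRBJ1 chains, 13 and 22 joined TRBJ1 to TRBJ2, and 5 and 20 joined 2 TRBJ2 chains. In 5xFAD 15 and 16 pairs joined 2 TRBJ1 chains, 32 and 40 joined TRBJ1 to TRBJ2, and 34 and 27 joined 2 TRBJ2 chains. Of the 9 recurrent pairs, 1 joined 2 TRBJ1 chains, 4 joined TRBJ1 to TRBJ2 and 4 joined 2 TRBJ2 chains. The constant region followed the J cluster in 570 of 572 TRB contigs of 2-TRB barcodes, and the other 2 listed no C segment.

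TRBJ2 segments were used by 50.0% and 65.3% of the distinct chains of 2-TRB barcodes in 5xFAD/Cxcr6-/-, against 60.6% and 65.7% of those of 1-TRB barcodes. In 5xFAD the shares were 62.7% and 56.7% for 2-TRB barcodes, against 63.8% and 65.6% for 1-TRB barcodes. The mean difference was -5.28 percentage points ± 5.19 (SD, n = 4). It was negative in 4 of 4 libraries, although the classes lay close together in 5xFAD/Cxcr6-/- library 2 and 5xFAD library 1, and the exact sign-flip p was 0.13 with an adjusted value of 0.2. It was lower in 3 and higher in 1 library without barcodes of invariant natural killer T (iNKT)-like receptors (p = 0.25), with at least 3 UMIs per chain (p = 0.375) and with barcodes counted in place of distinct chains (p = 0.25), each by the exact sign-flip permutation test.

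Few single segments moved the same way in all 4 libraries. With each distinct chain counted a single time and segments with at least 10 chains in 2-TRB barcodes tested, 1 of 17 TRBV segments (5.88%) was higher and 1 (5.88%) lower in 2-TRB than in 1-TRB barcodes of all 4 libraries. The higher one was TRBV16, at a mean of 6.99% of chains in 2-TRB against 5.72% in 1-TRB barcodes. The lower one was the deposited label TRBV12-2+TRBV13-2, at 9.78% in 2-TRB against 12.7% in 1-TRB barcodes, a difference of -2.97 percentage points ± 0.80 (SD, n = 4). The joined label was treated here as TRBV13-2 for germline matching. A separate TRBV13-2 label had 6 chains in 2-TRB barcodes, too few to be tested. Its share in 2-TRB barcodes was higher in both 5xFAD/Cxcr6-/- libraries and lower in both 5xFAD libraries. Of 12 TRBJ segments, TRBJ1-6 was higher in all 4 libraries (8.33%), at 5.20% in 2-TRB against 2.54% in 1-TRB barcodes, and TRBJ2-1 lower (8.33%), at 8.52% in 2-TRB against 11.1% in 1-TRB barcodes. The exact sign-flip p of each of these was 0.13, with adjusted values of 0.659 over all 29 segments tested. This p is the smallest that 4 libraries can give, so no segment could pass 0.05 whatever its difference.

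TRBV12-2+TRBV13-2, TRBV13-1, TRBV3, TRBV13-3 and TRBV29 were the segments used most by chains of 2-TRB barcodes, at 9.78%, 8.21%, 7.88%, 7.73% and 7.55% of chains. Besides TRBV16, the largest mean differences upward were in TRBV17, at 3.31% in 2-TRB against 1.80% in 1-TRB barcodes, and TRBV29, at 7.55% in 2-TRB against 6.17% in 1-TRB barcodes. Besides TRBV12-2+TRBV13-2, those downward were in TRBV12-2, at 2.92% in 2-TRB against 4.61% in 1-TRB barcodes, and TRBV19, at 5.32% in 2-TRB against 6.99% in 1-TRB barcodes. The libraries disagreed in sign for TRBV17, TRBV29, TRBV12-2 and TRBV19.

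**Figure D5:**
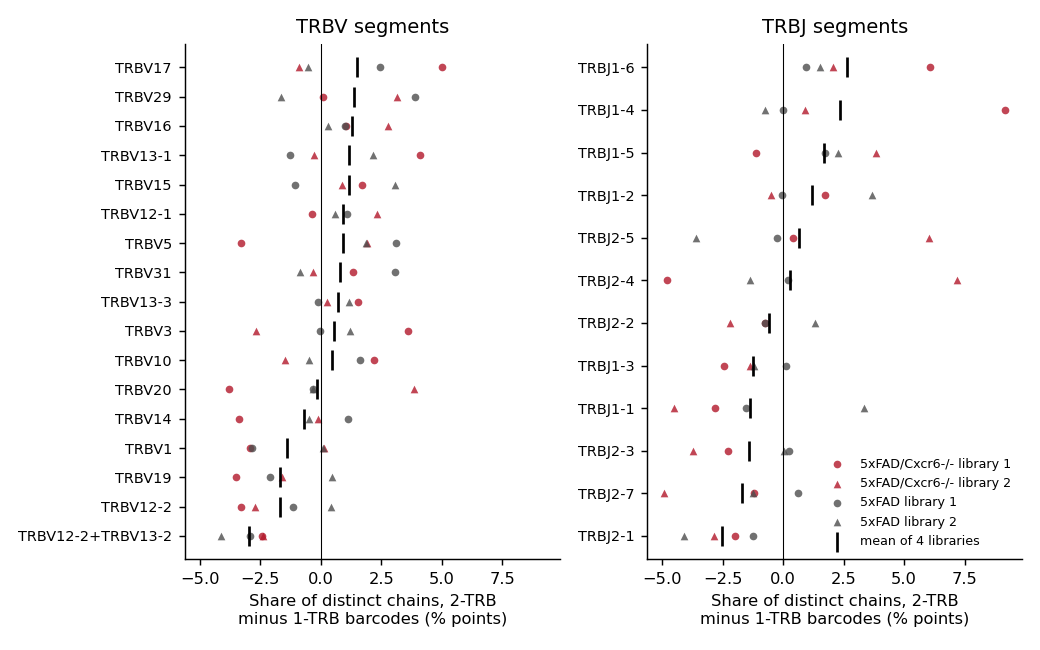
Share of distinct TRB chains using each TRBV (left) and TRBJ (right) segment in 2-TRB minus 1-TRB barcodes, in percentage points (horizontal axis), with 1 point per library (red 5xFAD/Cxcr6-/-, grey 5xFAD) and the mean as a bar. Most segments have points on both sides of 0, and TRBV12-2+TRBV13-2, at a mean of -2.97, has all 4 on the left.

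CDR3 regions of 2-TRB barcodes had a slightly lower mean length in all 4 libraries when each distinct chain was counted a single time, and 4 libraries cannot bring this difference past the threshold. The mean length of distinct chains in 5xFAD/Cxcr6-/- was 13.6 and 13.7 residues in 2-TRB barcodes, against 13.8 and 13.9 in 1-TRB barcodes. In 5xFAD it was 13.8 and 13.8 residues in 2-TRB barcodes, against 14.0 and 13.8 in 1-TRB barcodes. The mean difference was -0.18 residues ± 0.074 (SD, n = 4), lower in 4 of 4 libraries, with an exact sign-flip p of 0.13 and an adjusted value of 0.2. The SD over chains was 1.84 and 1.82 residues in 2-TRB barcodes of 5xFAD/Cxcr6-/-, against 1.48 and 1.46 in its 1-TRB barcodes, and 1.68 and 1.78 in 2-TRB barcodes of 5xFAD, against 1.45 and 1.45 in its 1-TRB barcodes. It was higher in 4 of 4 libraries, by 0.323 ± 0.062 residues (SD, n = 4), with an exact sign-flip p of 0.13, and was looked at after the first values were seen. Without the 2 chains that lack the closing phenylalanine, the mean length differed by -0.13 residues ± 0.068, lower in 4 of 4 libraries. The SD then differed by 0.213 ± 0.158 residues, higher in 3 of 4 libraries, with 1.46 in 2-TRB against 1.48 in 1-TRB barcodes of 5xFAD/Cxcr6-/- library 1. With barcodes counted in place of distinct chains, the mean length differed by -0.63 residues ± 1.15, lower in 3 and higher in 1 library, with an exact sign-flip p of 0.375.

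Short CDR3 regions of under 10 residues made 8 of 463 distinct chains of 2-TRB barcodes, against 10 of 4038 of 1-TRB barcodes. The shares in 5xFAD/Cxcr6-/- were 2.17% and 3.16% in 2-TRB barcodes, against 0.566% and 0% (0 of 972) in 1-TRB barcodes, and in 5xFAD they were 1.27% and 1.22% in 2-TRB barcodes, against 0.257% and 0.292% in 1-TRB barcodes. The 1 short chain of 5xFAD/Cxcr6-/- library 1 is the TRBV23-TRBJ1-1 chain without the closing residue, and the TRBV23-TRBJ2-7 chain is among the 3 of library 2. Without these chains, 6 of 461 distinct chains of 2-TRB barcodes were short, and the share was higher than in 1-TRB barcodes in 3 of 4 libraries, with 0 of 45 chains in 5xFAD/Cxcr6-/- library 1. Bases matched to neither germline V nor J averaged 9.33 and 10.1 in 2-TRB barcodes of 5xFAD/Cxcr6-/-, against 9.78 and 9.86 in its 1-TRB barcodes, and 9.65 and 9.64 in 2-TRB barcodes of 5xFAD, against 10.2 and 9.81 in its 1-TRB barcodes. The mean difference of -0.22 bases ± 0.341 had an exact sign-flip p of 0.375, over the chains that could be matched, 93.5% to 97.6% per library in 2-TRB barcodes.

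The chains of a pair differed in sequence. The median difference in CDR3 length within a pair was 1 and 1 residues in 5xFAD/Cxcr6-/- and 1 and 2 in 5xFAD, and the largest was 8. Among the 41 pairs of equal length, the fewest differing CDR3 bases were 4. Both chains used the same TRBV in 1 and 3 pairs of 5xFAD/Cxcr6-/- and in 6 and 4 pairs of 5xFAD. These were 4.35% and 6.25% of distinct pairs in 5xFAD/Cxcr6-/-, against 7.18% and 5.86% under independent draws from the chains' own TRBV use. In 5xFAD they were 7.41% and 4.82%, against 7.21% and 6.50% under independence. The low counts are thus near what independent draws give.

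Invariant natural killer T (iNKT)-like receptors, with a TRA joining TRAV11 or TRAV11D to TRAJ18, were in 36 of the 286 barcodes. They made, in 5xFAD/Cxcr6-/-, 1.64% (1 of 61) and 5.45% (3 of 55) of 2-TRB barcodes, against 4.06% and 1.82% of 1-TRB barcodes with a TRA. In 5xFAD they made 22.0% (18 of 82) and 15.9% (14 of 88) of 2-TRB barcodes, against 13.9% and 8.38% of 1-TRB barcodes with a TRA. The 2-TRB share was above the 1-TRB share in 3 of 4 libraries. None of the 60 recurrent barcodes was iNKT-like, and 12 of the 36 had a second TRA. Mouse iNKT cells mostly use TRBV13-2, TRBV29 or TRBV1, and both chains used one of these in 8 barcodes, a single chain in 21 and neither in 7. Per chain these were 37 of 72 (51.4%), against 316 of 413 (76.5%) for the TRB of iNKT-like 1-TRB barcodes, where the libraries ranged from 69.6% to 81.2%. A 2-TRB barcode enters with both chains and a 1-TRB barcode with its only chain. The lower share per chain therefore does not mean that fewer barcodes held such a chain. Both shares pool the libraries and count every barcode of a clone. Mucosal-associated invariant T (MAIT)-like receptors, TRAV1 joined to TRAJ33, were in 2 of the 286, both in 5xFAD.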

How the data were processed

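Per the labels' protocols, the kit was 10x Genomics Chromium Immune Profiling v2 for single cells. Cell Ranger 6.0 and mm10 are given in the submitters' processing notes, and the command, the receptor reference and the filters are not given in the sources used here. The deposited tables list, per the file headers, contigs with read and UMI counts that are not normalized.

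Groups came from sample titles. A chain was identified by V, J and CDR3 nucleotides within a library. The germline segments and coordinates are from GENCODE vM21 (GRCm38, the build mm10 names). Genotypes were compared with exact two-sided permutation tests, and classes within libraries with exact two-sided sign-flip permutation tests over the 4 libraries, adjusted by Benjamini-Hochberg over the 8 planned tests (separately over the 29 segments), with a threshold of 0.05. Shares carry 95% Clopper-Pearson intervals, and a count of 0 carries the limit of 3 counts. Named pairs were those in 3 or more barcodes and the largest of a library with none. Named segments were the 5 TRBV most used by 2-TRB chains and the 3 with the largest mean difference in each direction, and TRBJ1-6, TRBJ2-1 and the remaining recurrent pairs fall outside this rule and were named after their values were seen. The members, lists and tests were chosen with earlier results of these data known. Pair finding was tested on simulated data of 506 barcodes, in which 106 of 106 recurrent barcodes were recovered and 0 were misplaced. Python 3.11.15, pandas 2.3.3 and scipy 1.17.1 were used. Alternatives covered the UMI minimum, chain identity, the unit counted, the denominator, iNKT-like receptors, the largest pair and single libraries. The 1-TRB reference with a TRA and the CDR3 lengths without chains lacking the closing phenylalanine were added after seeing the data.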

Additional observations from a re-analysis of the deposited data

Results flagged for a closer look

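The share of pairs with both chains from the same TRBJ cluster moved in opposite directions in the genotypes. Relative to independent draws it was lower in both 5xFAD/Cxcr6-/- libraries, by a mean of -3.30 percentage points, and higher in both 5xFAD libraries, by a mean of 4.34, so the genotypes differed by -7.64 percentage points. One library carried each mean, with -6.52 and -0.087 percentage points in 5xFAD/Cxcr6-/- and 7.74 and 0.93 in 5xFAD. Without iNKT-like barcodes the values were -9.19 and 2.94 in 5xFAD/Cxcr6-/- and 5.90 and 0.66 in 5xFAD, so the opposite directions did not hold there. The difference between genotypes was not tested, and the counts behind it are small, with 23 and 48 distinct pairs in 5xFAD/Cxcr6-/- and 81 and 83 in 5xFAD.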

How the results depend on the processing

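Of 112 combinations of a result and an alternative, 105 kept the direction and 7 reversed it. The number of libraries kept every exact p above 0.05 throughout. Some of the 105 could not change. With 0 barcodes holding more than 2 TRA, leaving such barcodes out changed nothing, and the replicate block keeps a difference by its design. The other chain identities, and in part the minimum of 2 UMIs, returned the main values. The count is thus not a measure of how firm the results are. Without the largest recurrent pair of each library, the 2-TRB share differed by -0.22 percentage points. With library 1 of 5xFAD/Cxcr6-/- left out, the weaker chain's share differed by 2.29 and pairs with both chains alone by -3.78 percentage points, and with barcodes counted in place of pairs the both-alone difference was -1.62. The same-cluster difference was -0.61 with at least 3 UMIs per chain, -4.98 with barcodes counted and -1.89 without 5xFAD library 1. The cause was not tested. With each library left out in turn, the 2-TRB share differed by 0.39 to 4.36, the recurrent share by 8.21 to 60.9, 2-TRA by 14.0 to 22.4 (recurrent against single-occurrence pairs -30.1 to -26.9), the weaker share by -3.18 to 2.29, both-alone by -3.78 to 9.86, the same cluster by -1.89 to 2.86 and TRBJ2 by -6.88 to -3.52 percentage points. With at least 3 UMIs per chain, 2-TRA differed by 10.9 and recurrent against single-occurrence pairs by -17.5. With barcodes counted, the CDR3 difference was -0.63 residues. The log2 UMI ratio was 0.98 to 1.11 and the CDR3 difference -0.22 to -0.16 residues with each library left out. With the replicate number as a block, the differences stayed 2.37 (2-TRB share) and 34.5 (recurrent share) with an exact p of 0.5, and the labels do not say that the numbers pair the libraries. Recurrence depends on how many cells of a clone were sampled, and 2 libraries per genotype limit every comparison.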
